A study of Homo sapiens with 24 samples.

Results

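Vascular endothelial growth factors (VEGF), fibroblast growth factors (FGF) and platelet-derived growth factors (PDGF) are secreted proteins that act through receptor tyrosine kinases. In FGF signalling a ligand held on heparan sulfate binds an FGF receptor, whose kinase then drives the Ras-ERK relay. Lung epithelial cells and carcinoma cells secrete VEGF and PDGF ligands whose receptors lie mostly on endothelial and mesenchymal cells, while FGF receptors are found on the epithelial cells themselves. Glucocorticoids (GCs) bind the glucocorticoid receptor, a transcription factor that raises the level of some genes and lowers that of others.

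The genes described here are the ligands *VEGFA*, *VEGFB*, *VEGFC*, *FGF2*, *PDGFA* and *PDGFB*, the FGF carrier *FGFBP1*, and the receptors *FGFR1*, *FGFR3* and *FGFR4*. They were chosen by name, with no measured value in the rule, and the counts of all transcripts of a gene were summed. Of these 10 genes, 9 were among the 33127 genes with a matched transcript in the table. *VEGFC* was not analysed here, since no transcript was matched to it. *FGFBP1* had too few counts for the test, which leaves 8 genes tested among 19897 genes or unmatched transcripts.

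A549, an established human cell line from a lung adenocarcinoma, was exposed to 100 nM dexamethasone (dex, a synthetic GC) or to the vehicle ethanol (EtOH, 0.02%). At 1 hour and every 2 hours from then to 11 hours, poly-A RNA of both treatments was sequenced from 2 replicates, giving 24 libraries. Both treatments were given to the same unmodified line, and A549 is one tumour line, so a result holds for that line. Nothing in the labels says whether replicates came from separate cultures, so p-values measure the spread between these libraries, which may be technical. Library totals ran from 6708864 to 13748598 counts (median 10109393.5), and replicates differed most at 11 hours, with a biological coefficient of variation of 12.7% against 6.48% at 7 hours. Of 6 tested targets of GCs, 6 were higher with dex, among them *TSC22D3*, whose log2 fold change was already 3.25 at 1 hour (adjusted p = 3.01e-10). The epithelial markers *KRT8*, *KRT18*, *KRT19*, *EPCAM* and *CDH1* were all counted well enough to be tested. Summed counts of 6 endothelial markers, of which 5 had a matched transcript, were 1 to 13 with EtOH and 3 to 10 with dex. Those of 4 blood cell markers were 11 to 37 and 7 to 37.

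Adjusted p-values were computed with edgeR (quasi-likelihood test) and corrected by the Benjamini-Hochberg method over all 19897 features, and a gene is called where this value is at most 0.1. A log2 fold change sets dex against EtOH at one time point, so that 1 is a doubling, and is given with its standard error (SE). Levels of one gene in different libraries are in CPM, its counts relative to the library total as scaled by the TMM method. In bulk RNA, fewer cells that express a gene and less of its RNA per cell cannot be told apart.

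All 10 genes are protein coding, and their positions are those of GENCODE release 29 on GRCh38. *VEGFA* lies on chromosome 6 from 43770184 to 43786487 and shares 188 of its 14431 exonic bases with AL136131.3 on the opposite strand, and *VEGFB* on chromosome 11 from 64234538 to 64238793. *FGF2* lies on chromosome 4 from 122826708 to 122898236, and 804 of its 6775 exonic bases are shared with *NUDT6* on the opposite strand. The use of strand in counting is not stated, so reads of such overlapping pairs may not be told apart there. The remaining positions are those of *FGFBP1* (chromosome 4, 15935569 to 15938740), *FGFR3* (chromosome 4, 1793293 to 1808872), *FGFR4* (chromosome 5, 177086886 to 177098144), *PDGFA* (chromosome 7, 497258 to 520296) and *PDGFB* (chromosome 22, 39223359 to 39244751). *VEGFC* lies on chromosome 4 from 176683538 to 176792727.

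The sequences before the start of 4 genes are shown: *FGFR3*, *FGFR4* and *PDGFA*, which were called lower at 5 hours, and *FGFBP1*, which had fewer counts with dex but was not called at any time point. They are from RefSeq on GRCh38.p14, run 5′ to 3′ on the strand of the gene, and stop where the GENCODE gene begins. Capitals mark GC boxes, the letters GGGCGG or their reverse CCGCCC, which Sp-family factors are known to bind.
FGFR3, chr4:1793043-1793292, plus strand: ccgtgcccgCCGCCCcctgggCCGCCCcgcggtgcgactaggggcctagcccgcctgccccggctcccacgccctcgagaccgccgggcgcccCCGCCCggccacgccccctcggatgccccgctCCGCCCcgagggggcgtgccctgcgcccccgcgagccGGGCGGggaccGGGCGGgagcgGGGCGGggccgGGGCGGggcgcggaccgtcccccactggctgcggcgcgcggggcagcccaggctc
FGFR4, chr5:177086665-177086885, plus strand: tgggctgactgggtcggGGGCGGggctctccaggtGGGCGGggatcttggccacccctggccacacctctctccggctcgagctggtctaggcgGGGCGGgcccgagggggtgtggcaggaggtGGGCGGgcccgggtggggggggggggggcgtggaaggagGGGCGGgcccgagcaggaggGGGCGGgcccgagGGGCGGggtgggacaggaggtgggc
PDGFA, chr7:520297-520476, minus strand: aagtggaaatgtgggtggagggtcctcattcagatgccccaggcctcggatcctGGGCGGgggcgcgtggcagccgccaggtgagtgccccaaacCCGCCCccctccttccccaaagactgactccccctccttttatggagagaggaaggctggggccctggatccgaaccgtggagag
FGFBP1, chr4:15938741-15938990, minus strand: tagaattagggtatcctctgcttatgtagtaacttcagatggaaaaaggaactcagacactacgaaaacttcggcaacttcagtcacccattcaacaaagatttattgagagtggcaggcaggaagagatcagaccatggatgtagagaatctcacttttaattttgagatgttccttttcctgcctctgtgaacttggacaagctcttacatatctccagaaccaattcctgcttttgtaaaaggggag

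In the 250 bases before the RefSeq start, *FGFR3* held 8 GC boxes and was 86.8% G or C. *FGFR4* held 7 at 79.6%, and *PDGFA* held 4 at 68.8%, of which the 2 nearest the start lie inside the GENCODE gene. No GC box was found for *FGFBP1*, at 40.8% G or C. Genes that were not lower with dex or were not analysed held GC boxes too, *VEGFB* 6 at 82.8% G or C, *FGF2* 3 at 75.2% and *VEGFC* 2 at 74.0%. Over 35116 RefSeq promoters, 42.6% held a GC box in the same length and the median was 58.0% G or C. The half-site of the glucocorticoid receptor (AGAACA, in 12.4% of promoters), the core of the hypoxia response element (ACGTG, 18.5%), the AP-1 site (TGANTCA, 6.6%) and the core of the TATA box (TATAAA, 10.7%) were searched on both strands. None of these letters was in the windows of the 7 listed genes, which were these 4 with *VEGFB*, *VEGFC* and *FGF2*.

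Levels of different genes were compared per transcript length, in TPM (a share of all transcripts in a library) computed from the counts of each transcript and its GENCODE length. With EtOH, *FGFR1* was the most abundant of the 9 genes, with a median of 92.2 TPM over 12 libraries (82.7 to 101), and *FGF2* followed at 82.5 TPM (60.7 to 88.5). The ranges of *FGFR1* and *FGF2* overlapped. Within single EtOH libraries *FGFR1* was above *FGF2* in all but replicate 1 at 3 hours (82.7 against 83.4 TPM), so their order did not hold in every library. *VEGFB* (median 41.9 TPM), *VEGFA* (28.0 TPM), *PDGFA* (27.5 TPM) and *FGFR4* (23.1 TPM) came next, and each overlapped its neighbour in range. Within each EtOH library *VEGFB* was above *VEGFA*. *FGFR3* at 5.72 TPM and *PDGFB* at 3.60 TPM overlapped in range, though *FGFR3* was the higher within each EtOH library. All 12 values of *FGFR3* were under those of *FGFR4*. *FGFBP1* was lowest at 0.990 TPM (0.599 to 1.92).

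**Figure D1:**
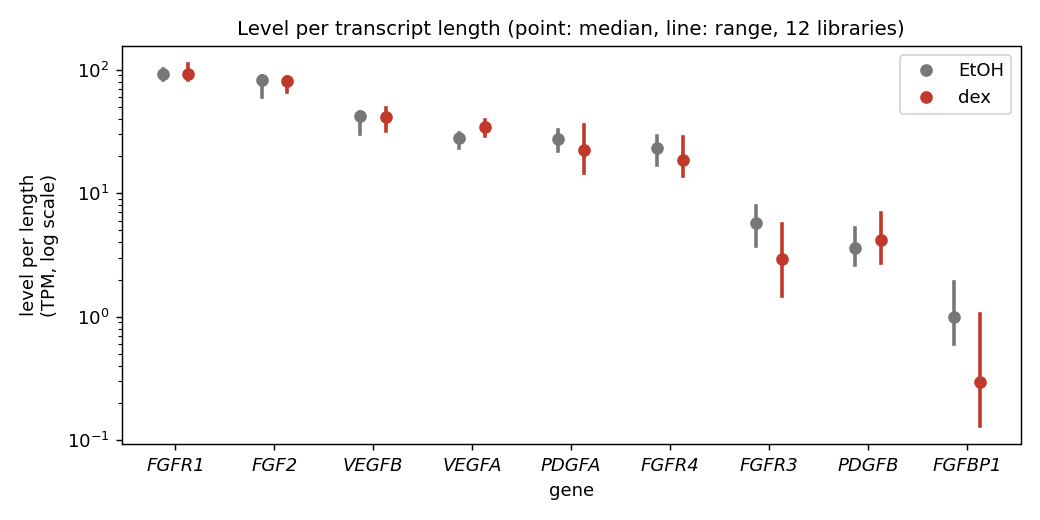
Level per transcript length in TPM (log axis) of 9 genes, ordered by their EtOH median. Points are medians and lines are ranges over the 12 EtOH (grey) and 12 dex (red) libraries, and *FGFR1* and *FGF2* stand above the other genes in both treatments.

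At single time points, the number of the 8 tested genes that were called went from 0 at 1 hour to 2 at 3 hours, 4 at 5 hours, 2 at 7 hours, 3 at 9 hours and 0 at 11 hours. The share of all features called at these times was 0.864%, 12.9%, 23.1%, 25.8%, 18.2% and 8.58%. At the ends of the course 0.523% (1 hour) and 5.31% (11 hours) of all features were called higher, and 0.342% and 3.27% lower. Higher with dex were *VEGFA* and *PDGFB* at 3 hours and *VEGFA* at 5 and 9 hours, when 7.66%, 11.2% and 9.79% of all features were called higher (13.4% at 7 hours). Called lower were *FGFR3*, *FGFR4* and *PDGFA* at 5 hours, *FGFR3* and *PDGFA* at 7 hours, and *FGFR3* and *FGFR4* at 9 hours, when 11.9%, 12.4% and 8.42% of all features were called lower (5.29% at 3 hours). The median log2 fold change of the 8 genes was 0.24 at 3 hours and -0.23 at 5 hours, where that of all features was -0.00 and 0.00. The calls at 11 hours depended on single libraries. Without dex replicate 1, *VEGFA*, *VEGFB*, *FGFR1* and *FGFR4* were called higher and *FGF2* lower, while without dex replicate 2 *VEGFA* was called higher and *FGFR3* lower.

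**Figure D2:**
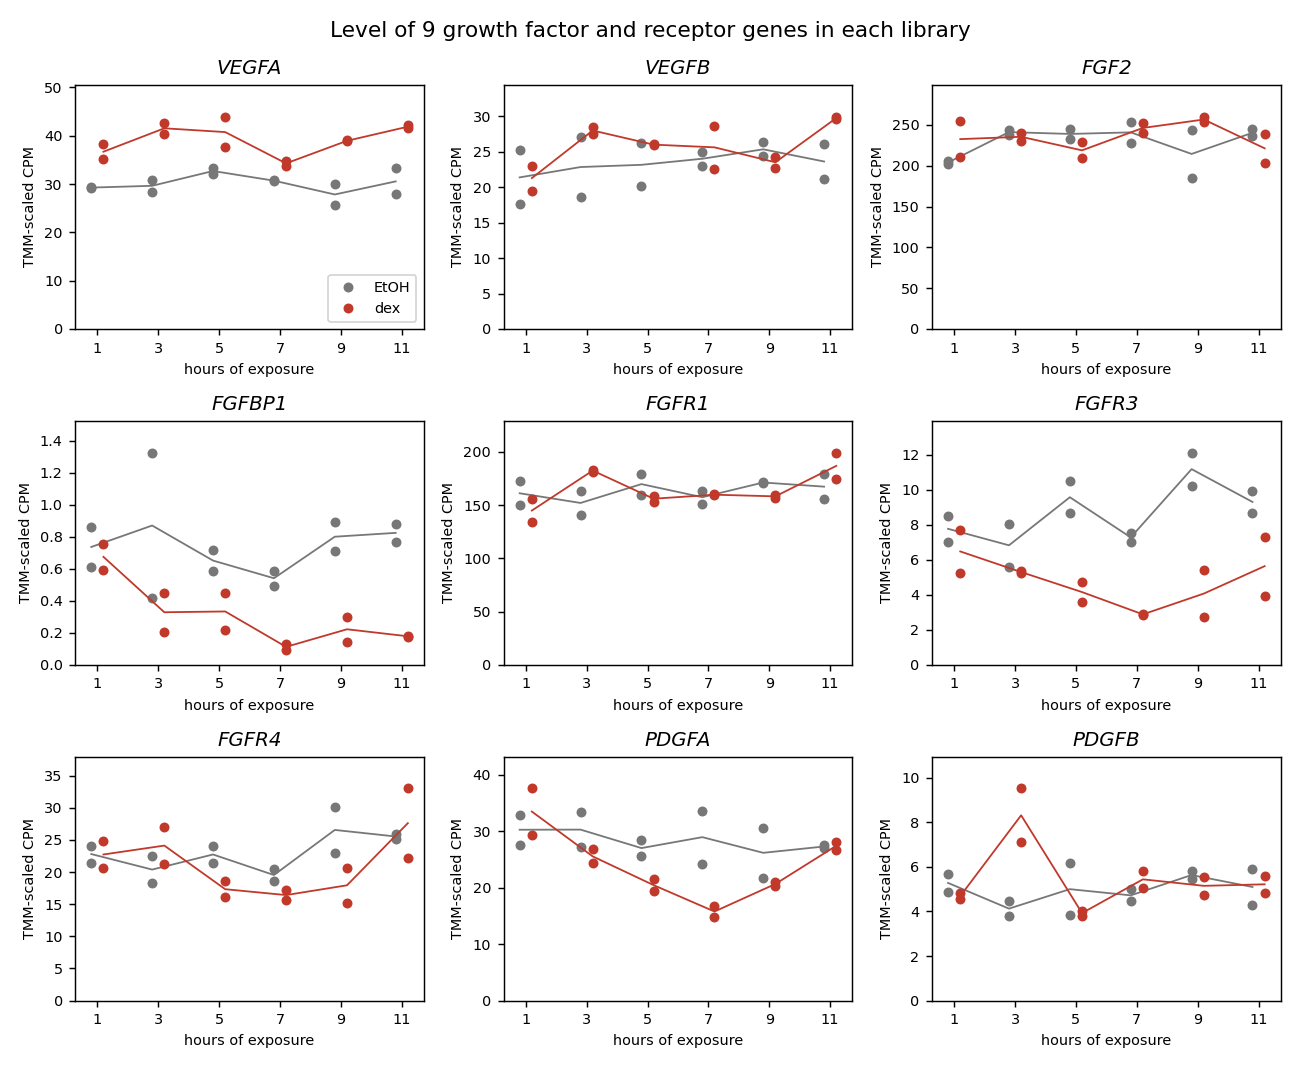
Level of 9 genes in each library, in TMM-scaled CPM, against hours of exposure. Each point is 1 library (grey EtOH, red dex) and lines join the means of the 2 replicates. All 12 dex points of *VEGFA* lie above all 12 EtOH points, which held for 0.995% of all tested features. The dex points of *FGFR3* lie under the EtOH points of the same time from 3 hours on. This held for 23.8%, 27.2%, 28.2%, 28% and 22.4% of all features at 3, 5, 7, 9 and 11 hours.

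*VEGFA*, the VEGF ligand that drives the growth of blood vessels, was higher with dex through the whole time course. Its level with EtOH was 25.6 to 33.3 CPM (median 30.3) over 12 libraries and with dex 33.8 to 43.9 CPM (median 38.9). The ranges did not overlap, and 0.995% of all tested features had all 12 dex libraries above all 12 EtOH libraries. The averages were 39.0 ± 3.29 CPM with dex and 30.1 ± 2.24 CPM with EtOH (SD, n = 12 libraries over 6 time points). In one fit over 24 libraries the mean log2 fold change was 0.37 (SE 0.05, adjusted p = 3.79e-07), or 1.29-fold (95% interval 1.21 to 1.39), where 16.4% of all features were called higher. With additive terms for treatment and time, the one form that 1 library a group allows, that mean effect was also called without replicate 1 (0.46, adjusted p = 0.00219) and without replicate 2 (0.29, adjusted p = 0.0403).

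At 1 hour *VEGFA* was at 29.3 and 29.2 CPM with EtOH and 35.2 and 38.2 with dex, a log2 fold change of 0.33 that was not called (adjusted p = 0.674). By 3 hours the EtOH libraries had 30.9 and 28.4 CPM and the dex libraries 40.3 and 42.7 CPM, a log2 fold change of 0.48 (SE 0.13, adjusted p = 0.00933). The call at 3 hours was lost without EtOH replicate 2 (0.41, adjusted p = 0.106). Both dex libraries lay above both EtOH libraries at each time point, as they did for 16.4%, 26.8%, 27.2%, 28.8%, 25.9% and 22.7% of all features at the 6 times in order.
The log2 fold change of *VEGFA* was 0.31 at 5 hours (SE 0.13, adjusted p = 0.0861) and 0.16 at 7 hours (adjusted p = 0.351). At 9 hours, with 30.0 and 25.6 CPM for EtOH against 39.1 and 38.8 for dex, it was 0.49 (SE 0.14, adjusted p = 0.0260). At 11 hours, with 33.3 and 27.8 CPM against 41.5 and 42.2, it was 0.45 (adjusted p = 0.150), which was called with all 24 libraries in one fit (0.46, adjusted p = 0.00855). The 5 hour call of *VEGFA* was lost without EtOH replicate 1 (0.29, adjusted p = 0.248), EtOH replicate 2 (0.35, adjusted p = 0.159) or dex replicate 2 (0.20, adjusted p = 0.497), and the 9 hour call without dex replicate 1 (adjusted p = 0.246) or 2 (adjusted p = 0.250). DESeq2 did not call the 5 hour change (0.32, adjusted p = 0.296). The test of a difference between the 6 effects of *VEGFA* did not pass (adjusted p = 0.585, where 13.8% of all features passed).

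*VEGFB*, a VEGF ligand that binds the receptor FLT1, was at 17.6 to 27.1 CPM with EtOH (median 24.7) and 19.5 to 29.9 CPM with dex (median 26.0). The ranges overlapped almost fully. It was called at 0 time points, and its mean log2 fold change was 0.12 (95% interval -0.02 to 0.27, adjusted p = 0.220). The interval thus reaches from a slightly lower level to 1.21-fold. At 3 hours the dex libraries were at 28.5 and 27.4 CPM and the EtOH libraries at 18.6 and 27.1 CPM, and without EtOH replicate 2 the gene was called higher (0.58, adjusted p = 0.0275).

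*FGF2*, the basic FGF that is released without a signal peptide, was counted 1387 to 3372 times per library. It had 185 to 254 CPM with EtOH (median 237) and 204 to 260 CPM with dex (median 239). The mean log2 fold change was 0.03 (95% interval -0.06 to 0.13, adjusted p = 0.656), so the interval runs from 0.960-fold to 1.09-fold. At 9 hours the dex libraries were at 260 and 253 CPM against 244 and 185 CPM with EtOH, a log2 fold change of 0.27 that was not called (adjusted p = 0.204). At 9 hours it was called under a replicate block (0.28, adjusted p = 0.0302) and without EtOH replicate 1 (0.49, adjusted p = 5.77e-06) and at 1 hour without dex replicate 2 (0.33, adjusted p = 0.0488).

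*FGFBP1*, a secreted carrier that frees FGFs from heparan sulfate, had so few reads that it did not pass the filter. Its 12 EtOH libraries held 5 to 13 counts (median 7, 93 in all) and its 12 dex libraries 1 to 6 counts (median 2, 35 in all). At 1 hour the libraries had 7 and 12 counts with EtOH and 6 and 5 with dex. At 7 hours they had 5 and 6 counts with EtOH and 1 and 1 with dex, and at 11 hours 7 and 7 against 2 and 2. From 5 hours on, both dex libraries lay under both EtOH libraries in CPM at each time point, as did 27.2%, 28.2%, 28% and 22.4% of all features at 5, 7, 9 and 11 hours. With no filter, a setting chosen after its counts were seen, the mean log2 fold change was -1.40 (SE 0.32, adjusted p = 0.000142 over 34335 features). No single time point was called for *FGFBP1* with that setting (lowest adjusted p = 0.161, at 11 hours).

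*FGFR3*, a receptor tyrosine kinase for FGFs, had the largest fall of the 8 tested genes. With EtOH it was at 5.61 to 12.1 CPM over 12 libraries (median 8.58) and with dex at 2.73 to 7.73 CPM (median 4.96), from 55 to 136 and 19 to 81 counts. The mean log2 fold change was -0.88 (SE 0.11, adjusted p = 2.41e-07), or 0.542-fold (95% interval 0.462 to 0.636), where 17.6% of all features were called lower. In the additive fit it was -0.66 without replicate 1 (adjusted p = 0.0109) and without replicate 2 -1.10 (adjusted p = 0.00677).

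At 1 hour the levels of *FGFR3* overlapped, with 7.04 and 8.50 CPM for EtOH and 5.23 and 7.73 for dex. At 5 hours they were 10.5 and 8.67 CPM with EtOH and 3.60 and 4.71 with dex, a log2 fold change of -1.20 (SE 0.23, adjusted p = 9.45e-05). At 7 hours they were 7.02 and 7.54 CPM against 2.85 and 2.91, a log2 fold change of -1.34 (SE 0.24, adjusted p = 5.63e-05). Both dex libraries were thus under both EtOH libraries at 5 and 7 hours, as were 27.2% and 28.2% of all features. With the most counted transcript in place of the sum, neither call held (-1.12, adjusted p = 0.111 at 5 hours and -1.07, adjusted p = 0.260 at 7 hours).
At 9 hours *FGFR3* had 12.1 and 10.2 CPM with EtOH and 2.73 and 5.41 with dex, and the log2 fold change was -1.35 (SE 0.26, adjusted p = 0.00211). By 11 hours the dex libraries had moved apart, to 3.95 and 7.32 CPM, against 9.95 and 8.66 with EtOH, and the change of -0.73 was not called (adjusted p = 0.188). At 11 hours it was called under a replicate block (-0.75, adjusted p = 0.0577), with no filter (-0.73, adjusted p = 0.0627), in one fit over 24 libraries (-0.72, adjusted p = 0.0778) and without dex replicate 2 (-1.22, adjusted p = 0.000117). *FGFR3* was called lower at 3 consecutive time points, where 8.63% of all features were called lower at 2 or more consecutive ones. The test of a difference between its 6 effects did not pass (adjusted p = 0.151, or 0.0979 under a replicate block), and neither did its course with EtOH alone (adjusted p = 0.179, where 3.33% of all features passed).

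*FGFR4*, another FGF receptor tyrosine kinase, was lower with dex at 5 and 9 hours only by a narrow margin. At 5 hours it had 24.04 and 21.42 CPM with EtOH and 16.1 and 18.6 with dex, a log2 fold change of -0.39 (SE 0.15, adjusted p = 0.0667). At 9 hours the levels were 23.0 and 30.1 CPM against 15.2 and 20.7, a log2 fold change of -0.52 (SE 0.18, adjusted p = 0.0628). Both dex libraries lay under both EtOH libraries at 5 and 9 hours, as did 27.2% and 28% of all features. DESeq2 called neither change of *FGFR4* (adjusted p = 0.293 and 0.173). Neither was called with the most counted transcript or at a threshold of 0.05, and one fit over 24 libraries did not call the change at 5 hours. The call at 5 hours was lost without EtOH replicate 1 (-0.31, adjusted p = 0.306) or dex replicate 1 (-0.29, adjusted p = 0.339), and that at 9 hours without EtOH replicate 2 (-0.31, adjusted p = 0.163), dex replicate 1 (-0.34, adjusted p = 0.575) or dex replicate 2 (-0.78, adjusted p = 0.1197). At 7 hours it was at 20.5 and 18.6 CPM with EtOH and 15.7 and 17.2 with dex, which was called without EtOH replicate 2 alone (-0.33, adjusted p = 0.0890). The mean log2 fold change over the 6 time points was -0.14 (95% interval -0.29 to 0.01, adjusted p = 0.178), and it was -0.19 without the 4 libraries of 11 hours (adjusted p = 0.0554).

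*FGFR1*, the most abundant of the 3 FGF receptors, was called at 0 time points. It lies on chromosome 8 from 38400215 to 38468834 and shares 156 of its 13842 exonic bases with AC087623.1 and 138 with *LETM2*, both on the opposite strand. Its levels were 140.4 to 179.6 CPM with EtOH (median 163.5) and 134.1 to 199.3 CPM with dex (median 159.5). The mean log2 fold change was 0.01 (95% interval -0.08 to 0.10, adjusted p = 0.921), between 0.947-fold and 1.07-fold. At 3 hours both dex libraries, at 183 and 181 CPM, were above both EtOH libraries, at 140.4 and 163.5 CPM, as 26.8% of all features were. The log2 fold change of 0.25 was not called (adjusted p = 0.119), and it was 0.36 without EtOH replicate 2. At 5 hours, where *FGFR3* and *FGFR4* were lower, *FGFR1* was at 159.8 and 179.6 CPM with EtOH and 153.2 and 158.8 with dex.

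*PDGFA*, the PDGF chain that signals through PDGFRA, was lower with dex in the middle of the time course and level with EtOH at its end. At 1 hour it had 32.9 and 27.6 CPM with EtOH and 29.4 and 37.6 with dex. At 5 hours it had 28.4 and 25.7 CPM against 21.5 and 19.4, a log2 fold change of -0.40 (SE 0.14, adjusted p = 0.0414). At 7 hours the levels were 33.6 and 24.3 CPM against 16.8 and 14.8, and the log2 fold change was -0.86 (SE 0.14, adjusted p = 2.89e-05). Both dex libraries were under both EtOH libraries from 3 to 9 hours. Taken singly, 23.8%, 27.2%, 28.2% and 28% of all features were so at 3, 5, 7 and 9 hours.
By 11 hours *PDGFA* was at 27.1 and 27.5 CPM with EtOH and 28.2 and 26.7 with dex, a log2 fold change of 0.00. The test of a difference between the 6 effects passed (adjusted p = 0.0492), and the effects spanned 1.00 on the log2 scale. The call of *PDGFA* at 5 hours was lost in 5 of the 12 other settings tried. These were without EtOH replicate 1 (-0.33), without dex replicate 2 (-0.33), DESeq2 (adjusted p = 0.216), one fit over 24 libraries, and the most counted transcript. The call at 7 hours held in the 12 other settings tried. At 9 hours it had 21.8 and 30.6 CPM with EtOH and 21.0 and 20.4 with dex, and it was called without EtOH replicate 1 (-0.55, adjusted p = 0.00199) and with the replicate number as a block (-0.33, adjusted p = 0.0727). The mean log2 fold change was -0.28 (SE 0.07, adjusted p = 0.00161), and in a fit with additive terms for treatment and time over 24 libraries it was -0.27 (adjusted p = 0.0235). In that additive fit, the one possible with 1 library a group, it was -0.23 without replicate 1 and -0.31 without replicate 2, and neither was called. The additive fit counts differences of the effect between time points as residual spread. It therefore cannot tell dependence on 1 replicate from a change of the effect over time.

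*PDGFB*, the PDGF chain that binds both PDGF receptors, was higher with dex at one time point. At 3 hours it was at 3.77 and 4.48 CPM with EtOH (37 and 54 counts) and at 9.52 and 7.11 CPM with dex (92 and 79 counts). The log2 fold change was 0.98 (SE 0.23, adjusted p = 0.00325), and the call held in the 12 other settings tried. Both dex libraries at 3 hours lay above both EtOH libraries of that time, as did 26.8% of all features. They were also above the other 22 values of the gene, which ran from 3.77 to 6.17 CPM. That pattern was picked after the values were seen, and the share of all features with it was not counted. At 1 hour the log2 fold change was -0.16 and at 5 hours -0.33, neither of them called (adjusted p = 0.980 and 0.475). A difference between the 6 effects of *PDGFB* passed the test (adjusted p = 0.0611), and the effects spanned 1.32 on the log2 scale. The mean over the time points was 0.10 (95% interval -0.10 to 0.30, adjusted p = 0.496).

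**Figure D3:**
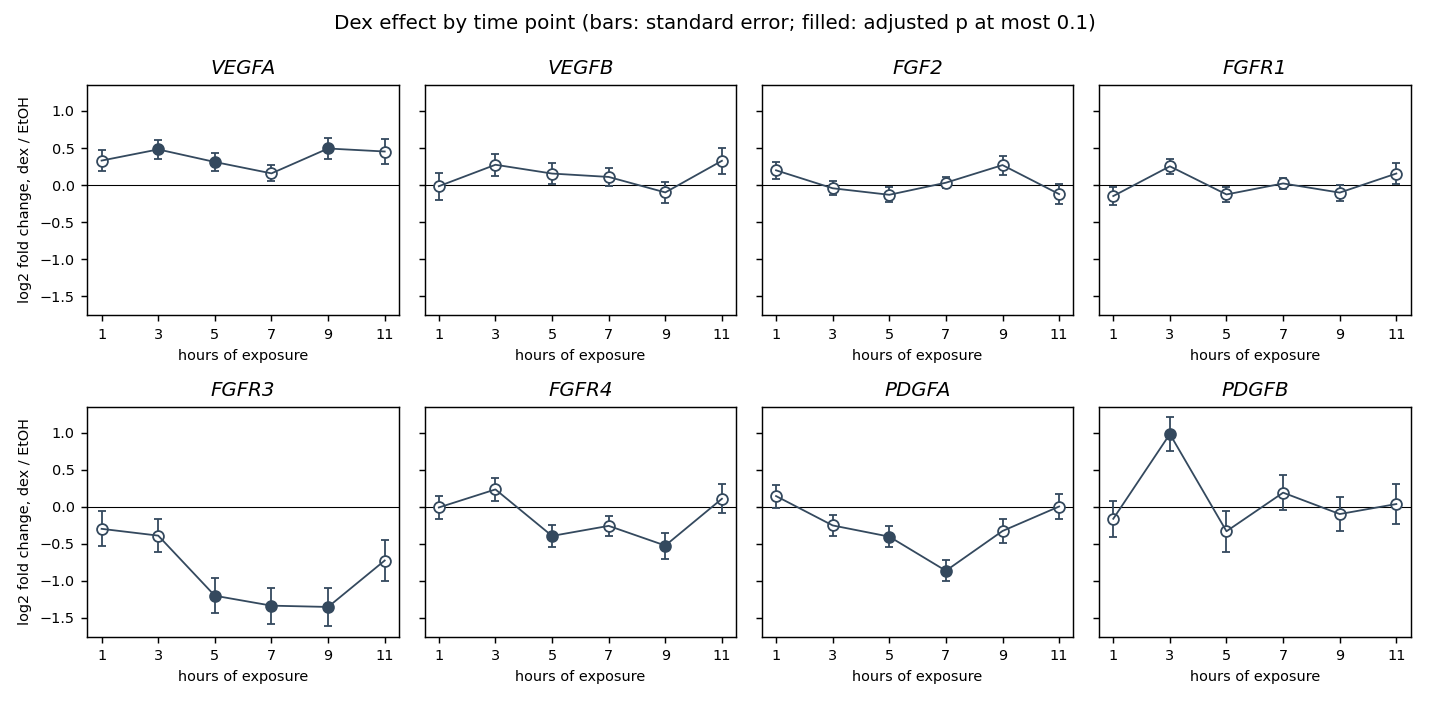
Log2 fold change of dex against EtOH for the 8 tested genes by hours of exposure, with bars for the standard error and filled points where the adjusted p is at most 0.1. *FGFR3* is at -1.20 to -1.35 from 5 to 9 hours, *PDGFA* is lowest at 7 hours at -0.86, and *PDGFB* is highest at 3 hours at 0.98.

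For the 3 genes called at 2 or more consecutive time points, the genes with the most similar levels over the 24 libraries were sought by Pearson's r of log2 CPM. *VEGFA* was called higher at 3 and 5 hours, as 9.7% of all features were at some pair of neighbouring times. Its nearest genes were *ZC3H12A*, an RNase that degrades cytokine mRNAs (r = 0.917), *DUSP1*, a phosphatase of MAP kinases (r = 0.893), and *BIRC3*, an inhibitor of apoptosis (r = 0.883). Those of *FGFR3* were *PLEKHG3* (r = 0.958), *HR* (r = 0.927) and *CARD10* (r = 0.920), and those of *PDGFA* were *SMOC1* (r = 0.860), *LMO4* (r = 0.846) and *ERBB3* (r = 0.844). The libraries of both treatments enter these values together, so a shared difference between treatments raises them. Over the pairs of tested members, the highest r were 0.682 for *FGFR3* and *FGFR4*, 0.649 for *VEGFB* and *FGFR1*, and 0.585 for *FGFR4* and *PDGFA*, and the lowest were -0.556 for *VEGFA* and *FGFR3* and -0.550 for *FGF2* and *FGFR4*.

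Other ligands were counted from lists of the families. Of 4 further VEGF and PDGF ligands, 3 were tested. At 2 or more consecutive time points 1 was called higher and 1 lower, where 9.7% and 8.63% of all features were. *PDGFC*, a PDGF ligand activated by cleavage, was called higher from 5 to 9 hours, with log2 fold changes of 0.54, 0.79 and 0.92 (SE 0.19 and adjusted p = 0.00319 at 9 hours). *PDGFD*, a ligand of PDGFRB activated in the same way, was called lower over the same hours, with -0.52, -0.57 (SE 0.11, adjusted p = 0.000113) and -0.37. Of 21 further FGF ligands, 15 had no library over 10 counts and 6 were tested, of which 1 was called higher and 0 lower at 2 or more consecutive time points. *FGF18* was called higher at 3, 5, 9 and 11 hours, with 3.54 at 11 hours (SE 0.62, adjusted p = 0.00227), from 1 to 9 counts per library with EtOH and 5 to 32 with dex. Named after their values were seen, *FGF12* (-1.19, adjusted p = 0.0188) and *VEGFD* (-1.03, adjusted p = 0.0623) were called lower at 7 hours only. *FGF5* was called lower at 11 hours only (-1.11, adjusted p = 0.0752). At 7 and 11 hours 12.4% and 3.27% of all features were called lower.

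Of 8 VEGF and PDGF receptors and neuropilins, *FLT1*, *KDR* and *PDGFRB* had no library over 10 counts and 5 were tested. *NRP1*, a co-receptor of VEGFA, was called higher at 5 hours (0.29) and 7 hours (0.31, SE 0.07, adjusted p = 0.00151), and *PDGFRL*, a receptor-like protein, at 5 hours (0.50) and 7 hours (0.47, SE 0.17, adjusted p = 0.0435). *FLT4*, a receptor kinase for VEGFC and the only VEGF receptor kinase tested, was called lower at 5 hours (-1.17, SE 0.32, adjusted p = 0.00531) and 9 hours (-1.23, SE 0.30, adjusted p = 0.0117), and is named after its values were seen. By mean effect, 0 of the 5 were called higher and 1 lower, where 16.4% and 17.6% of all features were. The lower one was *FLT4* at -0.36 (adjusted p = 0.0496), while *NRP1* was at 0.05 (adjusted p = 0.351). Among 6 other FGF receptors and co-receptors, 4 were tested. *FGFR2* was called higher at 5 hours (1.08) and 7 hours (1.35, SE 0.48, adjusted p = 0.0405), from at most 26 counts in any library. *FGFRL1*, an FGF receptor without a kinase domain, was called lower at 5 hours (-0.69) and 7 hours (-0.85, SE 0.17, adjusted p = 0.000288). *FGFR3*, *FGFR4* and *FGFRL1* were thus called lower at 5 hours and *FGFR2* higher, where 11.9% and 11.2% of all features were. *KLB*, on the same list as *FGFR2*, was also called higher at 5 hours (0.94, SE 0.39, adjusted p = 0.0915), and is named after its values were seen. *FGFR1* was not called at that time (adjusted p = 0.455).

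Heparan sulfate proteoglycans hold FGF and VEGF ligands at the cell surface and in the matrix. Of 8 tested out of 11, 4 were called higher and 1 lower at 2 or more consecutive time points, where 9.7% and 8.63% of all features were. The perlecan gene *HSPG2* (0.97 at 5 hours, SE 0.20, adjusted p = 0.0123), the glypican gene *GPC1* (0.72 at 7 hours, SE 0.09, adjusted p = 5.10e-08) and the syndecan gene *SDC4* (0.67 at 7 hours, SE 0.10, adjusted p = 4.57e-06) were among the higher ones, and *SDC3* was called lower at 5 hours (-0.39, SE 0.15, adjusted p = 0.0653) and 7 hours (-0.36, adjusted p = 0.0682), with 0.40 at 1 hour, which was not called (adjusted p = 0.579), and a mean effect of -0.06 (adjusted p = 0.529). Of 7 tested proteins that process the ligands, 4 were called higher and 2 lower in this way, beside the same 9.7% and 8.63% of all features. *PLAU* was counted in both directions and is named for that. It was called lower at 1 hour (-0.70) and 3 hours (-0.62), and higher at 5, 7 and 9 hours (0.60, 0.39 and 0.36). *PCSK5* (1.09 at 9 hours, SE 0.17, adjusted p = 0.000305) and *PCSK6* (0.97 at 9 hours, SE 0.24, adjusted p = 0.0119) are proprotein convertases. *CCBE1*, a factor needed to mature VEGFC, was at 0.72 at 5 hours (SE 0.13, adjusted p = 4.83e-05). *PLAT*, tissue plasminogen activator, was at -1.75 at 11 hours (SE 0.47, adjusted p = 0.0421), from 4 to 26 counts per library.

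Downstream of the receptors, 20 genes of adaptors and the Ras-ERK relay were all tested, and 3 were called higher and 0 lower at 2 or more consecutive time points, where 9.7% and 8.63% of all features were, so that the share called higher was near that of all features. *SHC1*, an adaptor that links receptors to Ras, was called from 3 to 11 hours and reached 1.24 at 5 hours (SE 0.10, adjusted p = 7.39e-14). *PIK3R1*, the regulatory subunit of PI3K, was at 0.86 at 5 hours (SE 0.16, adjusted p = 4.43e-05), and the ERK kinase gene *MAP2K2* at 0.83 at 7 hours (SE 0.17, adjusted p = 0.0215). The median mean effect of the 20 genes was 0.06, and that of all features -0.00.
Of 14 tested feedback inhibitors and genes induced by ERK, 2 were called higher and 6 lower in this way, where 9.7% and 8.63% of all features were. *SPRY1*, an inhibitor of receptor tyrosine kinase signalling, was called higher at all 6 time points, with 2.04 at 1 hour (SE 0.31, adjusted p = 0.000830). *DUSP5*, a phosphatase of ERK, was at 0.76 at 7 hours (SE 0.10, adjusted p = 5.94e-07). In the other direction, *DUSP4*, a further phosphatase of MAP kinases, was at -1.67 at 3 hours (SE 0.11, adjusted p = 1.19e-13), *ETV1*, an ETS factor, at -1.46 at 7 hours (SE 0.23, adjusted p = 5.74e-06), and *FOSL1*, an AP-1 subunit, at -1.25 at 5 hours (SE 0.24, adjusted p = 0.000100). The inhibitors on this list were thus called in both directions.

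*VEGFA* is a known target of hypoxia-inducible factors, and 13 such factors and targets were tested beside it. At 2 or more consecutive time points, 3 were called higher and 2 lower, where 9.7% and 8.63% of all features were. *NDRG1* (2.03 at 11 hours, SE 0.19, adjusted p = 1.51e-05) and *CA9*, a carbonic anhydrase (1.19 at 11 hours, SE 0.20, adjusted p = 0.00199), were higher from 3 hours on, and *EGLN1*, a prolyl hydroxylase, was at 0.47 at 9 hours (SE 0.13, adjusted p = 0.0233). *EPAS1*, which encodes the factor HIF-2α, was at -0.48 at 9 hours (SE 0.11, adjusted p = 0.00714), and *EGLN3*, a further prolyl hydroxylase, was at -1.05 at 9 hours (SE 0.18, adjusted p = 0.000987) after 0.41 at 3 hours (adjusted p = 0.0669). The median mean effect of the 13 genes was 0.04.

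**Figure D4:**
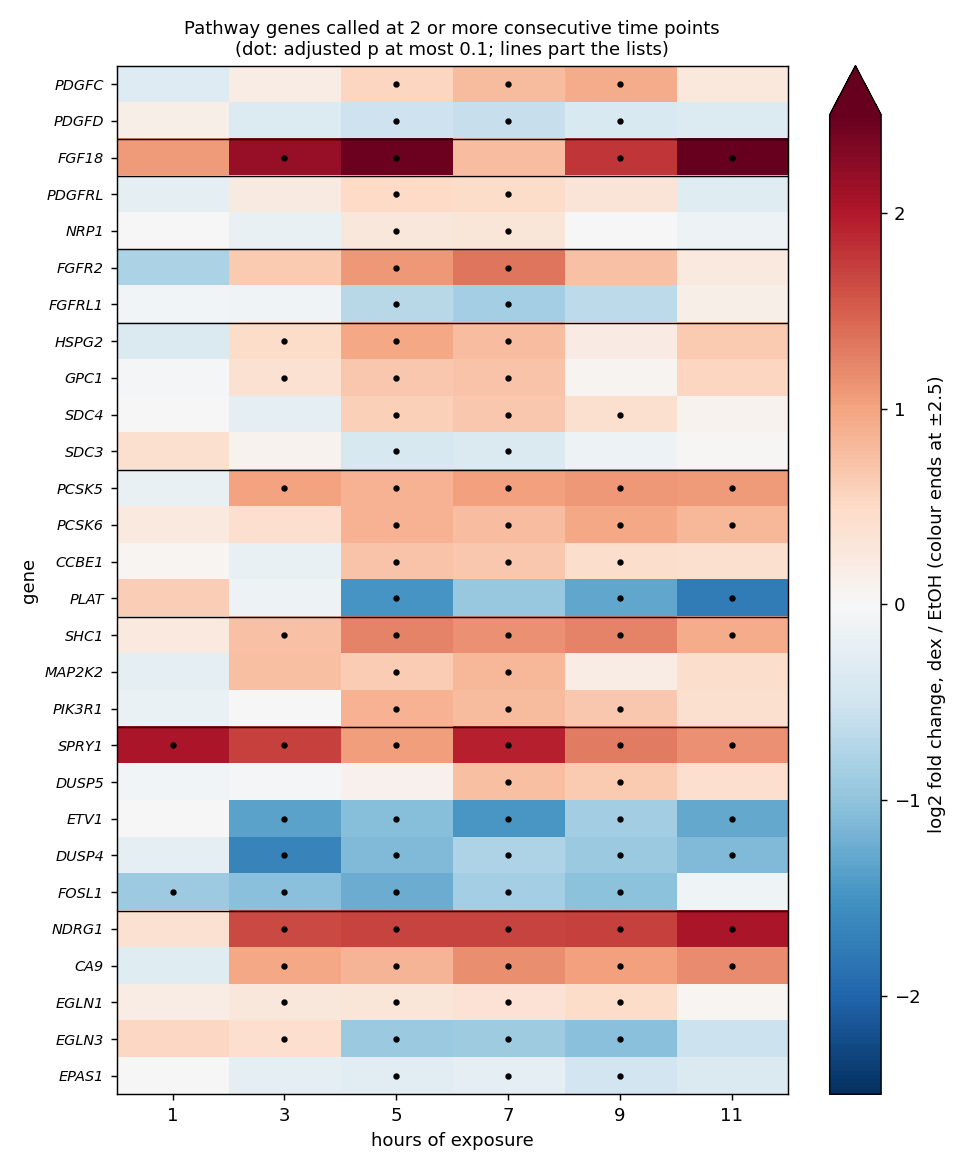
Log2 fold change of dex against EtOH (colour, ending at 2.5 in either direction) by hours of exposure, with a dot where the adjusted p is at most 0.1. Shown are the pathway genes named above that were called at 2 or more consecutive time points in a single direction, with lines between the lists. *SPRY1* is dotted at all 6 times, and *DUSP4* is blue from 3 hours on.

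Some markers of the line and of fibroblasts moved with treatment as well, while the 1 endothelial and 1 blood cell marker tested were called at 0 time points. Of the 5 epithelial markers, 3 were called higher and 1 lower at 2 or more consecutive time points (9.7% and 8.63% of all features), with *KRT8* at 1.45 at 7 hours (SE 0.07, adjusted p = 1.40e-17) and *EPCAM* at -0.96 at 7 hours (SE 0.21, adjusted p = 0.000608). Summed counts of 6 fibroblast and mural markers, not scaled to library totals, were 152 to 311 with EtOH and 60 to 269 with dex. *COL1A1*, on that list, was at 0.56 at 3 hours (SE 0.17, adjusted p = 0.0343) and -1.21 at 5 hours (SE 0.21, adjusted p = 1.35e-05). *PDGFRB* and *DCN*, also on that list, had no library over 10 counts. Whether these shifts have a part in the changes of *FGFR3*, *PDGFA* and *VEGFA* was not tested.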

How the data were processed

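The deposited values are raw counts per transcript: the authors aligned the reads, from a stranded poly-A protocol, against GENCODE transcripts using Bowtie and tallied them with SAMtools (genome build hg19 per the labels). The placing of reads with several matches is not stated; summing over a gene's transcripts leaves this open between similar genes. The labels' treatment text gives 1 hour for every library; their durations, 1 to 11 hours, were used here. The paper states triplicates, the labels give 2 replicates.

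Of 119207 transcripts, 110262 (94.1% of counts) were matched to genes by identifier through GENCODE release 29 and summed per gene. The other 8945 were kept as they were. The row for unplaced reads was left out and held 0 counts.

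filterByExpr of edgeR 4.0.16 over the 12 groups (minimum count 10) left 19897 of 42072 features. Time points were fitted one by one (2 dex, 2 EtOH libraries; TMM, robust quasi-likelihood F-test, Benjamini-Hochberg over all features, threshold 0.1). Standard errors are the log2 fold change over the square root of F. The mean effect, the change of effect (5 contrasts against 1 hour) and the EtOH course used one fit over 24 or 12 libraries. The scripts were tested on simulated data. Lists name up to 3 genes per direction, those with the largest mean change among genes called at 2 consecutive time points. For similarity, the 3 highest r are named, with a prior count of 2 for log2 CPM. Members and lists were chosen with earlier results of these data known. Alternatives were DESeq2 1.42.0, its size factors in edgeR, other filters, all 24 libraries in one fit, a block for the replicate number, the transcript with the most counts, a threshold of 0.05 and leaving out each library. A further 3 were added after seeing the data: no 11 hour libraries, treatment plus time as additive terms, and no filter for *FGFBP1*. R was 4.3.3, Python 3.11.15 and matplotlib 3.10.9. Promoters are from RefSeq (GRCh38.p14), with entries for 7 of the 10 genes.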

Additional observations from a re-analysis of the deposited data

Results flagged for a closer look

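The effect of dex differed between time points for 2 genes. For *PDGFA* the test of the 5 contrasts against 1 hour in edgeR (quasi-likelihood, Benjamini-Hochberg) gave an adjusted p = 0.0492. Its log2 fold change was 0.14 at 1 hour, -0.86 at 7 hours and 0.00 at 11 hours. For *PDGFB* the same test gave an adjusted p = 0.0611, with log2 fold changes of -0.16 at 1 hour, 0.98 at 3 hours and -0.33 at 5 hours. Of all features, 13.8% passed this test.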

How the results depend on the processing

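Of 704 values of single genes under another setting, 621 kept their call and direction, 32 were no longer called, 25 were newly called and 26 changed sign, of which 0 were called under either setting.

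The number of genes called changed as follows. DESeq2 called 0 higher and 1 lower at 5 hours and 1 lower at 9 hours. With no filter, 0 were called higher at 5 hours, 1 lower at 11 hours, 4 for the change of effect and 1 for the EtOH course. One fit over 24 libraries called 1 lower at 5 hours, and 1 higher and 1 lower at 11 hours. The transcript with the most counts gave 0 lower at 5 hours, 1 lower at 7 hours, and 0 higher and 1 lower at 9 hours. The threshold of 0.05 gave 0 higher at 5 hours, 1 lower at 9 hours and 1 for the change of effect. Leaving out 1 library gave 0 to 1 higher at 1 hour, 0 to 1 higher and 1 to 3 lower at 5 hours, 0 to 2 higher and 1 to 3 lower at 9 hours, and 0 to 4 higher and 0 to 1 lower at 11 hours. Leaving out a replicate gave 1 to 2 higher and 1 to 3 lower for the mean effect. The change of effect and the EtOH course have no residual degrees of freedom without a replicate, and no value is given.

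Nothing in the labels says that a replicate number marks a shared culture or day, the methods call the EtOH control paired without tying it to a number, and the correlation of same-numbered deviations was 0.135 at 1 hour and 0.102 at 9 hours but between -0.0588 and 0.026 at the other time points, so the numbers were not taken to pair the libraries. With the number as a block, 2 genes were called higher at 9 hours and 1 lower at 11 hours, and over all features 634 in place of 172 were called at 1 hour and 5224 in place of 3624 at 9 hours.

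Signs changed for 26 values, all uncalled in the main setting, given here on the log2 scale. With the block, *VEGFB* at 1 hour was at 0.016. With the transcript with the most counts, *VEGFB* (0.078), *FGFR3* (0.099) and *FGFR4* (0.13) at 1 hour, *FGFR1* at 7 hours (-0.032), and *FGFR4* (-0.091) and *PDGFA* (-0.061) at 11 hours changed sign. Leaving out 1 library at 1 hour gave -0.25 to 0.28 for *VEGFB*, -0.14 to 0.13 for *FGFR4* and -0.030 to 0.33 for *PDGFA*. At 5 hours it gave -0.0094 to 0.37 for *VEGFB* and -0.64 to 0.034 for *PDGFB*, and at 7 hours -0.087 to 0.25 for *VEGFB*, -0.048 to 0.11 for *FGF2* and -0.037 to 0.079 for *FGFR1*. At 9 hours the range for *PDGFB* was -0.23 to 0.00013, and at 11 hours the ranges were -0.19 to 0.38 for *FGFR4*, -0.028 to 0.053 for *PDGFA* and -0.19 to 0.29 for *PDGFB*. Mean effects ran from -0.025 to 0.30 for *VEGFB* without a replicate and changed to -0.022 for *FGFR1* without 11 hours. The cause was not tested. A library left alone in its group was taken to vary like the others. With 2 libraries a group the spread is shared between genes, and *FGFBP1*, *FGF18* and *FGFR2* are limited by low counts.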
